A study of Mus musculus with 2 samples.

Results

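Immediate early genes are genes that cells switch on within minutes of a stimulus, without first making new protein. The 10 described here are Fos, Fosb, Jun and Junb, which encode subunits of the transcription factor AP-1, Egr1 and Egr3, zinc finger transcription factors, Nr4a1 and Nr4a3, orphan nuclear receptors, and 2 genes whose products are not transcription factors, Apold1 and Ccn1. They are 10 of the 32285 genes in the deposited matrices and were found there by symbol. They were picked with their difference between the libraries already known, so the comparisons below describe these libraries and carry no test.

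The AEVs library was made from wild-type C57BL/6 mice aged 6 to 8 weeks, with a contusion of the spinal cord at T10 made by a 5 g rod of 1 mm diameter falling 6 cm. They were injected into the tail vein on 5 consecutive days with athlete-derived extracellular vesicles, membrane particles shed by cells, at 100 µg of vesicle protein in 100 µL of PBS each time. The PBS library was made from mice of the same strain, age and injury, injected on the same schedule with 100 µL of phosphate-buffered saline alone. All mice were given antibiotics before and after surgery, and nuclei were taken from cord frozen on day 7. Each library pools 3 mice, and each group has 1 library, so no difference between the groups has a replicate check. The question is what the vesicles changed in injured cord relative to their carrier, and uninjured cord was not analysed here.

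The promoters of these genes hold sites for factors that are already in the cell and are activated by phosphorylation, such as CREB, which binds the cyclic AMP response element (CRE), and serum response factor, which binds the CArG box. The messages last only minutes to hours, because their decay is fast and because the phosphatases and decay factors they induce act back on the pathway. In nervous tissue they are known as markers of recently active neurons, and in injured tissue they are also induced in glia, vessel cells and fibroblasts.

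Promoter sequences are shown for 4 of the members whose level differed 3-fold or more in fibroblast-like nuclei. Each runs 5′ to 3′ toward the start site, from RefSeq on build GRCm38.p6, and ends before the start of the gene in GENCODE where that lies further upstream, so that Nr4a3 shows 3 of its 4 half-sites. Capitals mark matches on either strand to the CRE half-site TGACG or to the EGR site GCGNGGGCG.
Fos (chr12:85473640-85473889, plus strand): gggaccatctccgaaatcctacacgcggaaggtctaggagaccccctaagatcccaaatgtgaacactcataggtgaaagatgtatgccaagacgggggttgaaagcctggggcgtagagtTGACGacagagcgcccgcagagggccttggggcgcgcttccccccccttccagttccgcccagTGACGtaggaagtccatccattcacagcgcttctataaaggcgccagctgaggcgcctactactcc
Fosb (chr7:19310052-19310295, minus strand): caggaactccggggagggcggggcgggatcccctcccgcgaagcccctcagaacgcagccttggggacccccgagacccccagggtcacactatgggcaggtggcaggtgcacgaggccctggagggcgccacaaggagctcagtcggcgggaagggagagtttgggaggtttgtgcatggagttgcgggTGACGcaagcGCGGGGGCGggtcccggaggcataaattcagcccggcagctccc
Nr4a3 (chr4:48045055-48045152, plus strand): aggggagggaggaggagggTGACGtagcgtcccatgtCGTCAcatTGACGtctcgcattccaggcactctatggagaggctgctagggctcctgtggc
Ccn1 (chr3:145649986-145650235, minus strand): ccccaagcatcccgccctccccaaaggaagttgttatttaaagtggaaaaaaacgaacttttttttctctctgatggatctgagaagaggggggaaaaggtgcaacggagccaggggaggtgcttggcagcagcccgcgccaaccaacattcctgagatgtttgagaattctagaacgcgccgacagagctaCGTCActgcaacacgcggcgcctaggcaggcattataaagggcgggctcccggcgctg

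Of the 10 genes, 8 were in the RefSeq promoter table, and Egr1 and Egr3 were not. Egr3, Nr4a1 and Apold1 also differed 3-fold or more in fibroblast-like nuclei. The windows of Nr4a1 and Apold1 lie inside the gene in GENCODE, so they are not shown. Jun and Junb, which differed less, were searched but are not shown. A link between sites and the difference was not tested, and Junb, the least changed there, also held a half-site. In the 250 bases before the start, the CRE half-site had a match in 7 of the 8, all but Jun, against 17.8% of all 32851 promoters in the table. Nr4a1 and Nr4a3 held 4 matches each, Fos held 2, and Fosb, Junb, Apold1 and Ccn1 held 1. In Fos the matches began 129 and 66 bases before the start site, in Fosb 60, in Apold1 52 and in Ccn1 58 bases before it. The EGR site had a match in Fosb and Nr4a1, against 4.70% of all promoters. The full CRE, TGACGTCA, which contains the half-site, the AP-1 site TGANTCA, the NR4A site AAAGGTCA and the CArG box had no match in these 8 windows, against 1.55%, 6.75%, 1.34% and 1.47% of all promoters. These are matches of letters in 1 window of each gene, and no binding was measured.

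After removal of poor nuclei and called doublets, the AEVs library kept 15602 nuclei with 68548886 unique molecular identifiers (UMIs, 1 per captured RNA molecule), and the PBS library kept 13847 nuclei with 71221228 UMIs. The median nucleus had 2407.5 UMIs and 0.141% mitochondrial UMIs in the AEVs library, and 2591 UMIs and 0.248% in the PBS library. Of the barcodes, 177 occurred in both libraries. Clusters of nuclei were built with the 10 genes left out and named by marker genes, with the ending -like because the names rest on RNA alone, and the 10 classes that reached 100 nuclei in both libraries are described. Fibroblast-like nuclei were 3.61% of the AEVs and 6.94% of the PBS nuclei. Levels are given as CPM, the UMIs of a gene per 1000000 UMIs of the class. Log2 ratios set AEVs over PBS, and ranges in brackets are 95% intervals for counting error only, which leave out differences between mice and between preparations.

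All 10 genes had a lower level in the AEVs than in the PBS library over all nuclei, where 38.2% of all measured genes were lower. Together they held 6317 UMIs in the AEVs and 11637 UMIs in the PBS library, which is 92.2 CPM (89.9 to 94.5) against 163.4 CPM (160.4 to 166.4), a log2 ratio of -0.83 (-0.87 to -0.78). A level at least 2-fold lower in the AEVs library was found for 5 of 10, which were Fosb, Egr3, Nr4a3, Apold1 and Ccn1. Of all 21024 genes with at least 20 UMIs, 2.12% were that much lower and 4.49% that much higher, and nothing can be read from the gap because the members were chosen on this contrast. Their median log2 ratio was -1.01, beside 0.10 over all genes.

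Among the AP-1 genes, Fosb stood furthest apart. Fos (ENSMUSG00000021250, chr12:85473890-85477273, plus strand), whose protein pairs with Jun proteins to bind DNA, had 12.5 CPM in the AEVs and 24.6 CPM in the PBS library, from 858 and 1749 UMIs. Fosb (ENSMUSG00000003545, chr7:19302696-19310051, minus strand), a close relative of Fos, had 1.09 CPM in the AEVs and 6.07 CPM in the PBS library, a log2 ratio of -2.47 (-2.84 to -2.11), which was -1.30 without fibroblast-like nuclei and -3.05 after thinning to 1000 UMIs per nucleus. Jun (ENSMUSG00000052684, chr4:95049034-95052222, minus strand), the partner that can also pair with itself, had 20.9 against 29.05 CPM. Junb (ENSMUSG00000052837, chr8:84974484-84978718, minus strand), a Jun relative that binds the same partners, had 23.0 CPM in the AEVs and 26.0 CPM in the PBS library, the nearest to equal of the 10 at -0.18 (-0.27 to -0.08). Without fibroblast-like nuclei, the sign of Junb turned, to 0.0654. Jun overlaps the antisense gene Junos and Junb overlaps Prdx2 on the other strand. Whether counting used the strand is not given in the sources used here, so reads of each pair may be mixed.

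Of the EGR and NR4A genes, Nr4a3 stood furthest apart. Egr1 (ENSMUSG00000038418, chr18:34859823-34864984, plus strand), induced by growth factors and synaptic activity, had 13.7 CPM in the AEVs and 27.0 CPM in the PBS library, at -0.98. Egr3 (ENSMUSG00000033730, chr14:70077203-70082614, plus strand) had 1.40 against 2.86 CPM, at -1.03 (-1.40 to -0.68), or -1.93 as a mean over nuclei. Nr4a1 (ENSMUSG00000023034, chr15:101254269-101274795, plus strand), also called Nur77, had 10.5 CPM in the AEVs and 16.3 CPM in the PBS library, at -0.64. Nr4a3 (ENSMUSG00000028341, chr4:48045153-48086447, plus strand), also called NOR1, had 140 UMIs in the AEVs and 653 UMIs in the PBS library, at -2.17 (-2.44 to -1.90), or -1.43 without fibroblast-like nuclei.

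The other pair consists of Apold1 (ENSMUSG00000090698, chr6:134981718-134986836, plus strand), an early response gene of vascular endothelium, and Ccn1 (ENSMUSG00000028195, chr3:145646976-145649981, minus strand), formerly Cyr61, a secreted matrix protein that binds integrins. Apold1 had 2.13 CPM in the AEVs and 5.67 CPM in the PBS library, at -1.41 (-1.70 to -1.14). Ccn1 had 339 UMIs in the AEVs and 1190 UMIs in the PBS library. By the GENCODE annotation of build mm10, all 10 genes are protein-coding.

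The difference was unevenly spread over the cell classes. Fibroblast-like nuclei held 8.85% of the 10 genes' UMIs in the AEVs and 29.3% in the PBS library, while they held 1.80% and 3.25% of all UMIs. Neuron-like nuclei held 51.3% of the 10 genes' UMIs in the AEVs and 33.7% in the PBS library. For Fosb the fibroblast-like share was 22.7% against 66.2%, for Ccn1 30.4% against 53.1%, for Nr4a3 2.86% against 42.7%, and for Fos 7.34% against 33.1%. Apold1 differed from these: endothelial-like nuclei held 19.9% of its UMIs in the AEVs and 67.6% in the PBS library. With fibroblast-like nuclei left out, an alternative chosen after the data were seen, the summed log2 ratio over the other nuclei was -0.48 in place of -0.83.

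**Figure D1:**
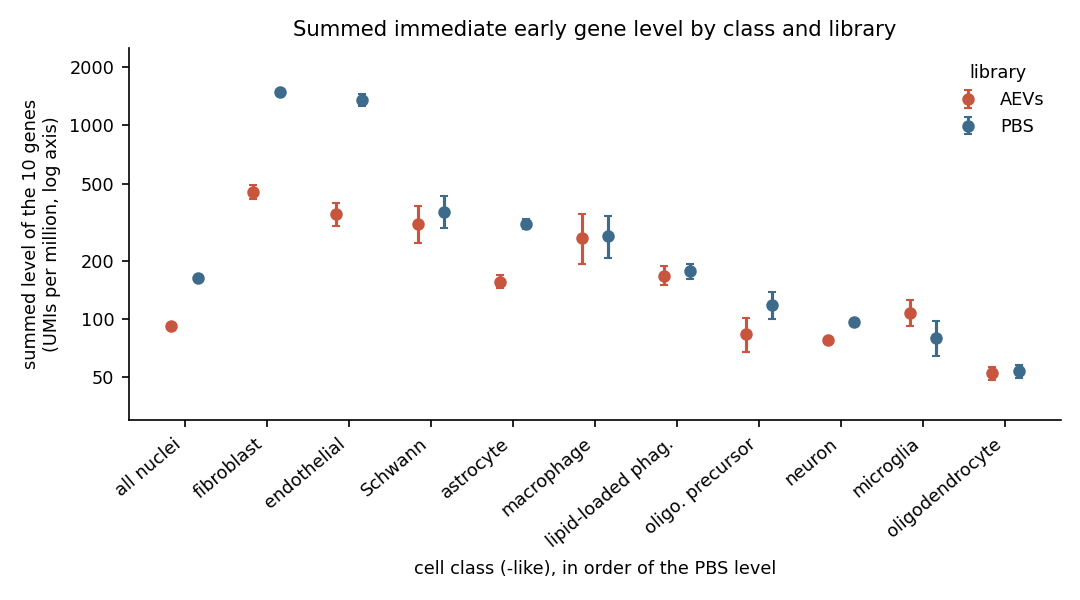
Summed level of the 10 immediate early genes in all nuclei and in each cell class, in UMIs per 1000000 UMIs of the class on a log axis, with 95% Poisson intervals for counting error and 1 library per group. Fibroblast-like nuclei stand at 453.4 CPM in the AEVs and 1475 CPM in the PBS library, endothelial-like nuclei at 347.1 and 1350 CPM, and the oligodendrocyte-like values, 52.5 and 53.6 CPM, overlap.

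In fibroblast-like nuclei, which are cells of the meninges and of the forming scar, all 10 genes were lower in the AEVs library. Of them 9 were at least 2-fold lower, and all had intervals below 0, which was not counted for other genes. In this class 41.6% of 12249 measured genes were lower, 3.81% at least 2-fold lower and 4.73% at least 2-fold higher. Fosb, Egr3, Nr4a3 and Apold1 reached 20 UMIs through the PBS library alone, with 17, 5, 4 and 2 UMIs in the AEVs library. Their part of the count thus supports nothing. The 10 genes summed to 453.4 CPM (416.5 to 492.5) in 563 AEVs nuclei and 1475 CPM (1426 to 1526) in 961 PBS nuclei, 3.25-fold lower at -1.70 (-1.83 to -1.57). Their median log2 ratio was -2.31, beside 0.09 over all genes of the class. The NR4A pair summed to 30.8 CPM in the AEVs and 258.1 CPM in the PBS library, the AP-1 genes to 243.3 against 712.9 CPM and the EGR pair to 94.1 against 220 CPM.

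Nr4a3 had the widest gap of the 10 in this class. It had 4 UMIs in 4 nuclei of the AEVs library and 279 UMIs in 114 nuclei of the PBS library, which is 3.24 CPM (0.884 to 8.31) against 120.6 CPM (106.9 to 135.6), 37.2-fold lower at -5.22 (-7.10 to -3.84). Fosb had 17 UMIs in the AEVs and 286 UMIs in the PBS library, 13.8 against 123.6 CPM, at -3.16 (-3.96 to -2.46). Fos had 63 UMIs in the AEVs and 579 UMIs in the PBS library, 51.1 against 250.3 CPM, at -2.29 (-2.69 to -1.92). These 3 encode transcription factors.

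Nr4a1 had 27.6 CPM in the AEVs and 137.5 CPM in the PBS library, at -2.32, and Egr3 had 5 against 65 UMIs, at -2.79 (-4.46 to -1.50). Ccn1 had 83.5 CPM in the AEVs and 273.2 CPM in the PBS library, at -1.71 (-2.02 to -1.41). Jun, Egr1 and Junb were the closest to equal, with log2 ratios of -1.29, -1.09 and -0.71. Egr1 was 90.0 CPM in the AEVs and 191.9 CPM in the PBS library, and Junb 120 against 196.3 CPM. The ratio intervals of Nr4a3 and Junb did not overlap. These genes were picked as the extremes, so the gap between their ratios supports nothing. Apold1 had 2 UMIs in the AEVs and 26 UMIs in the PBS library, too few for more than the sign, at -2.79 (-5.91 to -0.79).

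The fibroblast-like class split into 3 clusters at a finer resolution, and the summed level was lower in the AEVs library in each. One, led by Itgbl1, Col1a1 and Slc47a1, with Col1a1 a collagen chain of scar, had 135 AEVs and 425 PBS nuclei with 671.4 against 1773 CPM, at -1.40 (-1.59 to -1.22). The second, led by Dcn, Ranbp3l and Slc6a20a, with the transporter genes Slc6a13 and Slc7a11 among its leading genes, had 308 AEVs and 239 PBS nuclei with 365.8 against 1082 CPM, at -1.56 (-1.79 to -1.34). The third, led by Col1a1, Dcn and Col3a1, had 126 AEVs and 292 PBS nuclei with 279.2 against 1093 CPM, at -1.97 (-2.39 to -1.57). Nr4a3 was 4.92, 1.62 and 4.81 CPM in the AEVs library and 150.4, 92.1 and 69.0 CPM in the PBS library in that order of clusters. Most AEVs nuclei of the class thus lay in the second cluster and the largest group of PBS nuclei in the first.

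Depth, mitochondrial RNA and other cells' markers in the class were measured beside these levels. The summed ratio was -1.86 in nuclei under 0.5% mitochondrial UMIs and -1.55 above that, and -2.24 in nuclei under 2000 UMIs and -1.52 in deeper ones. The 10 fibroblast markers summed to 9513 CPM in the AEVs and 11736 CPM in the PBS library, 5 of them higher and 5 lower. Mural cell markers summed to 1048 against 546 CPM, with 8 of 9 higher, and astrocyte markers to 3107 against 2115 CPM. Ependymal markers summed to 60.8 CPM in the AEVs and 15.1 CPM in the PBS library, with 7 of 8 higher and Dnah12 at 0 in the PBS library, and macrophage markers to 344 against 487 CPM. T or NK cell markers summed to 30.8 against 54.9 CPM, with 9 of 10 lower and Cd3e and Nkg7 at 0 in the AEVs library, and neutrophil markers to 120 against 167.7 CPM, with Ly6g at 0 in both. The part of these in the result was not tested.

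**Figure D2:**
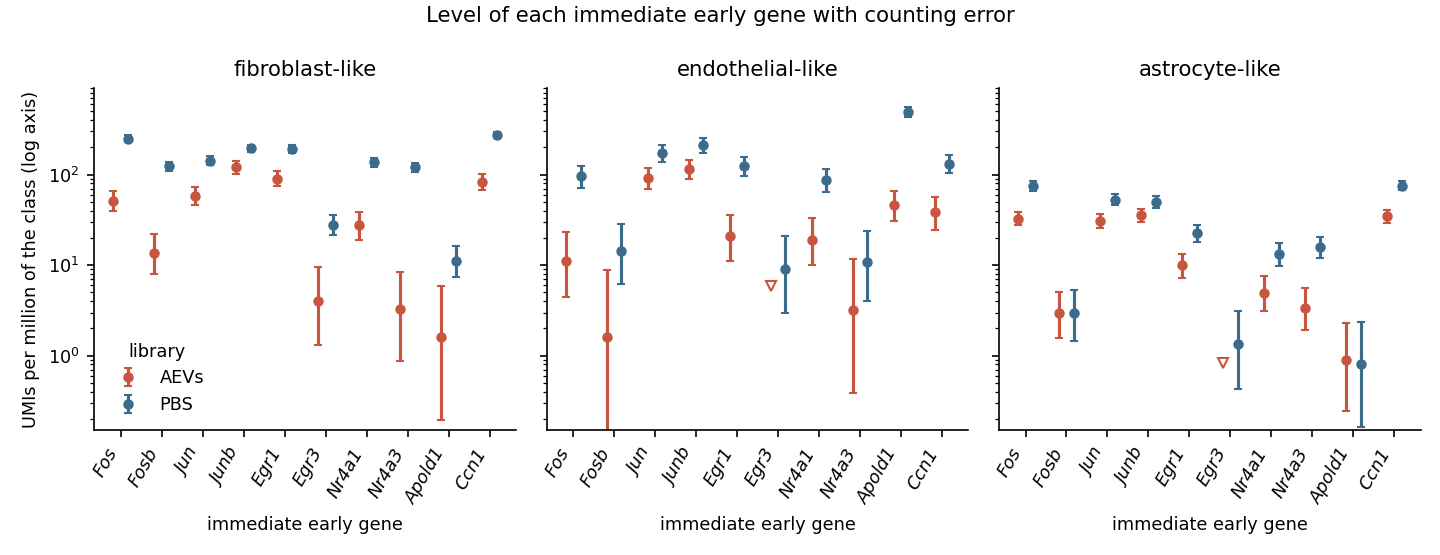
Level of each gene in fibroblast-, endothelial- and astrocyte-like nuclei, in UMIs per 1000000 UMIs of the class on a log axis, with 95% Poisson intervals. Open triangles mark the upper limit of the interval where a library had 0 UMIs; Nr4a3 in fibroblast-like nuclei (3.24 CPM in the AEVs, 120.6 CPM in the PBS library) and Apold1 in endothelial-like nuclei (46.4 and 493.5 CPM) are the widest gaps.

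In endothelial-like nuclei, the lining cells of vessels, 7 of 10 genes had at least 20 UMIs, and all 7 were lower in the AEVs library, 5 of them by at least 2-fold. Of 8703 measured genes in the class, 44.5% were lower, 5.37% at least 2-fold lower and 4.76% at least 2-fold higher. Fos, Egr1 and Nr4a1 reached 20 UMIs through the PBS library alone, with 7, 13 and 12 UMIs in the AEVs library. Their part of the count thus supports nothing. The 10 genes summed to 347.1 CPM (302.4 to 396.4) in 290 AEVs nuclei and 1350 CPM (1255 to 1451) in 208 PBS nuclei, at -1.96 (-2.18 to -1.74). Apold1, the endothelial member, had 29 UMIs in 24 AEVs nuclei and 273 UMIs in 92 PBS nuclei, 46.4 CPM (31.1 to 66.6) against 493.5 CPM (436.7 to 555.6), 10.6-fold lower at -3.41 (-4.02 to -2.86). Of the 10 described classes it had the highest Apold1 level in both libraries, clear of the next, which was oligodendrocyte-like at 1.95 CPM in the AEVs and fibroblast-like at 11.2 CPM in the PBS library. Mural-like nuclei, the cells around vessels, were too few to be described, with 65 AEVs and 48 PBS nuclei, and had Apold1 at 70.9 CPM (28.5 to 146.1) in the AEVs and 203.4 CPM (118.5 to 325.7) in the PBS library.

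Fos in this class had 7 UMIs in the AEVs and 53 UMIs in the PBS library, at -3.10 (-4.48 to -1.95), and Egr1 had 13 against 69 UMIs, at -2.58 (-3.56 to -1.72). Nr4a1 had 19.2 CPM in the AEVs and 86.8 CPM in the PBS library, and Ccn1 38.4 against 132 CPM. Jun and Junb were again the closest to equal, Jun with 91.2 CPM in the AEVs and 171.7 CPM in the PBS library and Junb with 115.2 against 211.5 CPM. Nr4a3, with 2 and 6 UMIs, could not be compared here.

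Endothelial markers summed to 12723 CPM in the AEVs and 11370 CPM in the PBS library, 6 of 10 higher. Erythroid markers, which report red cells or their RNA, summed to 819 against 2193 CPM with 6 of 6 lower, and neutrophil markers to 233.5 against 491.7 CPM. Fibroblast markers summed to 344 against 647 CPM with 8 of 10 lower. Oligodendrocyte markers summed to 1892 against 3205 CPM, astrocyte markers to 1217 against 2077 CPM and Schwann cell markers to 203 against 492 CPM. Neuron, oligodendrocyte precursor, microglia, phagocyte and ependymal markers were also lower. Mural, macrophage, dendritic, T or NK and B cell markers were higher, with intervals that reach 0. The class's median nucleus had 0.587% mitochondrial UMIs in the AEVs and 0.938% in the PBS library. The summed ratio of the 10 genes was -2.44 under 0.5% mitochondrial UMIs and -1.77 above it. The part of the other cells' RNA was not tested.

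In astrocyte-like nuclei 8 genes were measured, 7 were lower in the AEVs library and 5 were at least 2-fold lower. Of 13787 genes, 42.0% were lower, 1.23% at least 2-fold lower and 4.06% at least 2-fold higher. Among the 5, Nr4a3 reached 20 UMIs through the PBS library alone, so its part of the count supports nothing. The summed level was 156 CPM (144.6 to 168.1) in the AEVs and 310.4 CPM (292.9 to 328.8) in the PBS library, at -0.99 (-1.13 to -0.86). Fos had 144 UMIs in the AEVs and 281 UMIs in the PBS library, 32.6 against 75.0 CPM, and Ccn1 had 34.6 against 75.5 CPM. Nr4a3 had 15 against 59 UMIs, at -2.21 (-3.14 to -1.38), but at -0.12 with each nucleus thinned to 1000 UMIs, when 7 AEVs and 5 PBS nuclei had a UMI of it. Fosb, with 13 UMIs in the AEVs and 11 in the PBS library, did not differ beyond counting error, and 12 of the 13 lay in 1 nucleus. The 10 nuclei with most UMIs of the 10 genes held 21.0% of them in the AEVs and 29.7% in the PBS library.

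The astrocyte difference was widest in a cluster led by A2m, Aqp4, Hspb1 and C3, of 264 AEVs and 176 PBS nuclei. There the 10 genes summed to 217.9 CPM in the AEVs and 739.6 CPM in the PBS library, at -1.76 (-1.96 to -1.57). Nr4a1 had 5 against 39 UMIs in that cluster, Nr4a3 had 7 against 51 and Egr1 had 18 against 63. In the largest astrocyte cluster, led by Agt and Aqp4, the sum was 105.9 CPM in the AEVs and 118.9 CPM in the PBS library, at -0.17 (-0.41 to 0.07), an interval that reaches 0. The third, led by Aqp4 and Gfap, stood at -0.67 (-1.07 to -0.27). The first was picked as the widest of the 3, so the gap between the cluster ratios supports nothing. Astrocyte markers in the class summed to 12324 CPM in the AEVs and 15285 CPM in the PBS library, with 7 of 10 lower. Neuron markers summed to 993 against 590 CPM, endothelial markers to 79.2 against 39.0 CPM and erythroid markers to 160.5 against 71.0 CPM, and their part was not tested.

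Neuron-like nuclei, whose activity these genes are best known for, showed a smaller difference, at 78.1 CPM (75.4 to 80.8) in the AEVs and 96.2 CPM (93.2 to 99.3) in the PBS library, -0.30 (-0.37 to -0.23). Of the 10 genes, 8 were lower and 3 at least 2-fold lower. Of 19151 genes, 36.2% were lower, 1.58% at least 2-fold lower and 4.49% at least 2-fold higher. The 3 were Ccn1, with 13 against 60 UMIs, Fosb, with 33 against 87, and Nr4a3, with 75 against 176. Ccn1 reached 20 UMIs through the PBS library alone, so its part of the count supports nothing. Egr1 had 657 UMIs in the AEVs and 1095 UMIs in the PBS library, at -0.76 (-0.91 to -0.62), and Fos had 445 against 501 UMIs, at -0.20 (-0.39 to -0.01). Junb was higher in the AEVs library, 18.2 against 15.0 CPM, at 0.28 (0.13 to 0.44).

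Neuron clusters differed in sign. The sum was lower in the AEVs library by the most in a cluster led by Npy, a neuropeptide of inhibitory neurons of the dorsal horn, at 40.2 CPM in the AEVs and 117.7 CPM in the PBS library, -1.55 (-2.20 to -0.92). It was higher by the most in a cluster led by Chrm3, a muscarinic receptor gene, at 214.1 against 139 CPM, 0.62 (0.30 to 0.96). These 2 clusters were picked as the extremes, so the gap between their ratios supports nothing, and only counting error is known with 1 library per group. Another cluster led by Chrm3 stood at 0.41 (0.13 to 0.70). The 2 largest neuron clusters, led by Il1rapl2 and Kcnh7, stood at -0.01 (-0.15 to 0.13) and -0.79 (-0.92 to -0.66).

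The remaining classes differed in direction by gene. In oligodendrocyte-like nuclei the sums were 52.5 CPM in the AEVs and 53.6 CPM in the PBS library, at -0.03 (-0.19 to 0.13), with Junb higher at 11.8 against 5.17 CPM, 1.19 (0.76 to 1.64), and Jun lower at 17.5 against 24.1 CPM, -0.46 (-0.72 to -0.20). Of the 8 genes measured there, 1 was at least 2-fold lower and 1 at least 2-fold higher, where 2.11% and 6.57% of 14828 genes were. The lower one, Ccn1, had 5 against 22 UMIs and reached 20 through the PBS library alone. For Junb, 10 nuclei held 37.7% of its UMIs in the AEVs and 26.6% in the PBS library of this class, and its ratio ran from 0.56 with a stricter nucleus filter to 2.08 as a mean over nuclei. The class had an unequal mix of clusters, with 2055 AEVs and 149 PBS nuclei in the one led by Apod and 943 against 1464 in another. Erythroid markers in it summed to 93.7 CPM in the AEVs and 37.2 CPM in the PBS library and fibroblast markers to 32.8 against 77.6 CPM. The part of these was not tested. In oligodendrocyte precursor-like nuclei, the sum was 83.3 CPM in the AEVs and 117.8 CPM in the PBS library, at -0.50 (-0.88 to -0.13). Of 3 measured genes, 1 was at least 2-fold lower, where 3.24% of all genes were that much lower and 3.84% higher. This was Ccn1, with 12 against 28 UMIs, which reached 20 through the PBS library alone. Schwann-like nuclei had 309.1 CPM in the AEVs and 358 CPM in the PBS library, at -0.21 (-0.64 to 0.21), with Nr4a1 at 32 against 30 UMIs. None of the 5 genes measured in them passed 2-fold, where 4.29% of all genes were lower and 5.91% higher.

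The immune classes went the other way for Jun. In microglia-like nuclei Jun had 48 UMIs in the AEVs and 22 UMIs in the PBS library, at 0.77 (0.01 to 1.57), and Junb 85 against 43 UMIs, at 0.63 (0.08 to 1.19). All 3 genes measured there were higher, where 56.5% of 10360 genes were. None passed 2-fold, beside 1.84% of genes at least 2-fold lower and 5.18% at least 2-fold higher. Fosb and Nr4a3 had no UMI in either library. In lipid-loaded phagocyte-like nuclei, named by Gpnmb, Spp1 and related genes, Jun had 103 against 55 UMIs, at 1.35 (0.86 to 1.84), while Junb had 140 against 250 UMIs, at -0.40 (-0.71 to -0.09), or 0.0413 when nuclei needed 1000 UMIs and 500 genes. Nr4a3 had 0 UMIs in the AEVs and 21 UMIs in the PBS library of this class, at least 5.16-fold lower when the AEVs library is set to 3 counts. Of the 6 genes measured in this class, 1 was at least 2-fold lower and 1 at least 2-fold higher, where 3.29% and 4.15% of all genes were. The lower one was Nr4a3, which reached 20 UMIs through the PBS library alone, so the count supports nothing. The macrophage-like class, with 104 AEVs and 154 PBS nuclei, had Jun at 16 against 6 UMIs and Fos at 6 against 20 UMIs. These were the 2-fold higher and the 2-fold lower gene of 3 measured, where 6.46% of all genes were that much higher and 7.39% lower. Fos reached 20 UMIs through the PBS library alone. In this class erythroid markers summed to 18306 CPM in the AEVs and 589 CPM in the PBS library, with 6 of 6 higher, dendritic cell markers to 45.6 against 390 CPM and B cell markers to 558 against 1365 CPM. Schwann cell markers summed to 473 against 83.6 CPM, and macrophage markers to 10411 against 8025 CPM. The part of these in the result was not tested.

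**Figure D3:**
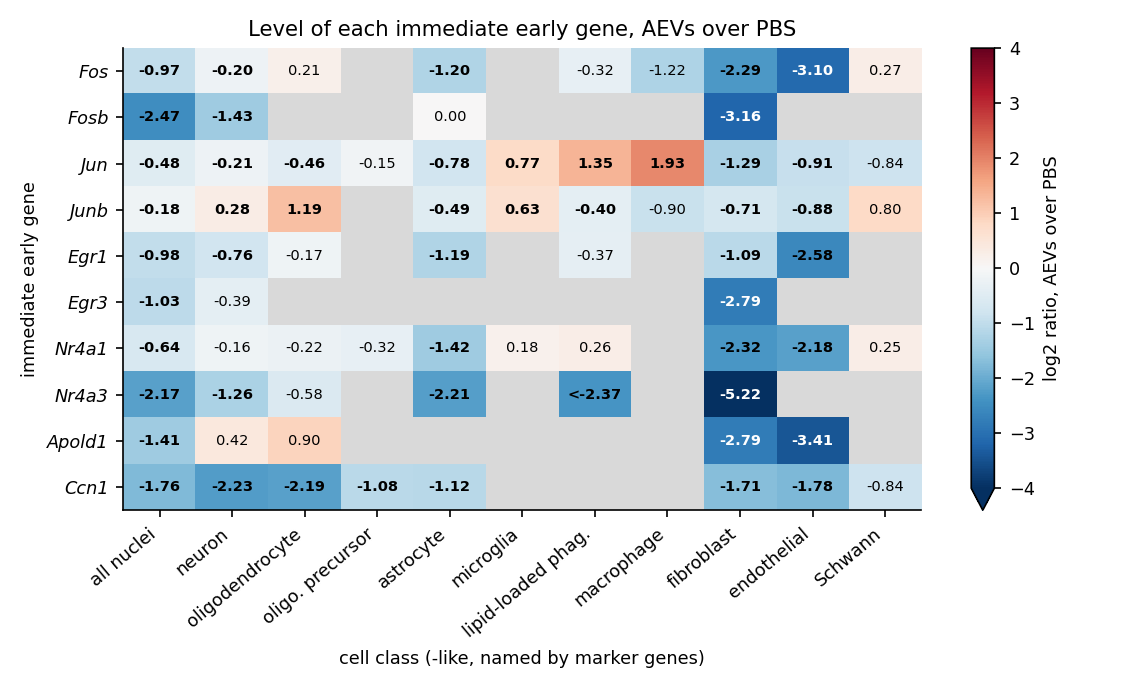
Log2 ratio of each gene's level, AEVs over PBS, in all nuclei and in the 10 cell classes, with blue for lower and red for higher in the AEVs library. Bold values have a counting interval that leaves out 0, grey cells have under 20 UMIs in both libraries together, and a < sign marks a bound against 3 counts. The fibroblast column runs from -5.22 for Nr4a3 to -0.71 for Junb.

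Of the 10 described classes, the one with the highest level was the same in both libraries for some genes and not for others. Fosb was highest in fibroblast-like nuclei in both libraries, 13.8 CPM in the AEVs and 123.6 CPM in the PBS library, with intervals clear of the next class in each. Egr1 was also highest there in both, clear of the next class, though not of the mural-like nuclei of the AEVs library, which had 30.4 CPM (6.27 to 88.8) from 3 UMIs. Nr4a3 was highest in fibroblast-like nuclei of the PBS library, clear of the astrocyte-like class at 15.7 CPM, while in the AEVs library the first of the 10, astrocyte-, fibroblast- and endothelial-like at 3.40, 3.24 and 3.20 CPM, did not differ beyond counting error. Ependymal-like nuclei, from the lining of the central canal, were left out of that order with 83 AEVs and 80 PBS nuclei. Their Nr4a3 level was above that of all 10, at 86.7 CPM (58.1 to 124.6) in the AEVs and 148.6 CPM (110 to 196.5) in the PBS library, from 29 and 49 UMIs, and in the PBS library its interval overlapped that of the fibroblast-like class. In AEVs nuclei Nr4a1 was highest in the Schwann-like class at 116.4 CPM. In PBS nuclei it was highest in the fibroblast-like class at 137.5 CPM, within counting error of the Schwann-like class at 97.6 CPM.

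Counted per nucleus, several of the genes were found together in far fewer AEVs than PBS fibroblast-like nuclei. With each nucleus thinned to 1000 UMIs, at least 1 of the 10 genes was found in 25.2% (21.0 to 29.7) of 409 AEVs nuclei and 50.4% (46.7 to 54.2) of 704 PBS nuclei. Before thinning the shares were 32.3% and 61.2%, and thinning left out 154 AEVs and 257 PBS nuclei with fewer UMIs. At least 2 genes were found in 6.60% against 28.1%, and at least 3 in 1.71% against 14.5%. In microglia-like nuclei, set beside them as a class with few of these UMIs and a median depth of 1456 and 1558 UMIs against 1619 and 1999 in fibroblast-like nuclei, at least 1 gene was found in 8.82% of AEVs and 7.65% of PBS nuclei.

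Nr4a3 was found in 0.245% of AEVs and 7.53% of PBS fibroblast-like nuclei, beside 0 of 907 AEVs and 0 of 667 PBS microglia-like nuclei, which allows shares of up to 0.331% and 0.450%. The AEVs share in fibroblast-like nuclei, 1 nucleus of 409, has an interval of 0.00619 to 1.35%, which reaches above those limits. Fos was found in 4.65% against 16.5%, Fosb in 0.978% against 8.52% and Ccn1 in 5.87% against 17.8% of fibroblast-like nuclei. In endothelial-like nuclei Apold1 was found in 3.45% of 203 AEVs and 29.0% of 155 PBS nuclei, and in 0.378% and 0.0604% of neuron-like nuclei. All 10 genes over all nuclei had a lower thinned share in the AEVs library, which was not counted for other genes.

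**Figure D4:**
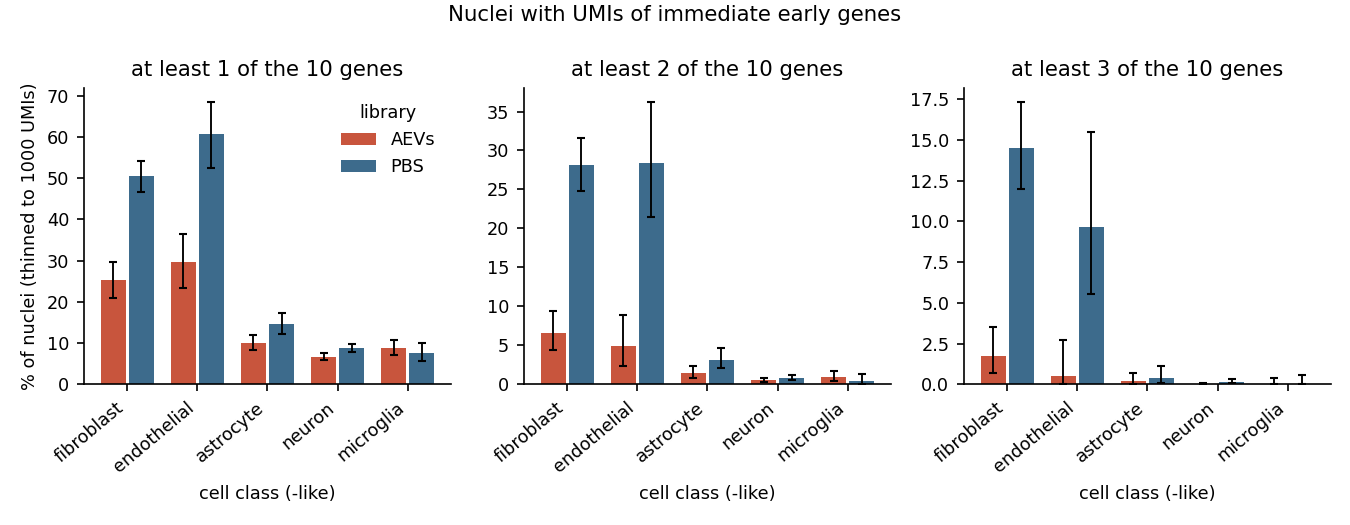
Percent of nuclei, each thinned to 1000 UMIs, with a UMI of at least 1, 2 or 3 of the 10 genes, by cell class and library, with 95% Clopper-Pearson intervals for counting error. In fibroblast-like nuclei the shares are 25.2%, 6.60% and 1.71% in the AEVs and 50.4%, 28.1% and 14.5% in the PBS library, while the neuron-like and microglia-like shares stay under 10% in both.

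In the PBS library the genes tended to be found in the same fibroblast-like nuclei. Among thinned fibroblast-like PBS nuclei, Fosb was found in 31.0% (22.8 to 40.3) of the 116 nuclei with Fos and in 4.08% (2.63 to 6.01) of those without it. Egr1 was found in 31.9% against 9.69%, Ccn1 in 37.1% against 13.9% and Nr4a3 in 18.1% against 5.44% of the same nuclei. Junb, the least changed member, was found in 24.1% (16.7 to 33.0) against 15.3% (12.5 to 18.5), intervals that overlap. In the AEVs library few nuclei could be used. There Fos was found in 17.9% (6.06 to 36.9) of the 28 nuclei with Egr1 and 3.68% (2.02 to 6.09) of those without, intervals that overlap. These are shares over nuclei of 1 library each, and nuclei are not replicates.

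In fibroblast-like nuclei the 10 nuclei with most UMIs of the 10 genes held 26.5% of them in the AEVs and 9.93% in the PBS library. The highest nucleus had 35 UMIs of these genes in the AEVs and 62 UMIs in the PBS library.

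Related genes were set beside the 10 from lists written with earlier results of these data known. Nr4a2, the third NR4A receptor, was the one gene of the other EGR and NR4A members at least 2-fold lower over all nuclei, 164 UMIs in the AEVs and 553 UMIs in the PBS library, at -1.70 (-1.96 to -1.44). In fibroblast-like nuclei it had 19 against 359 UMIs, at -3.33 (-4.08 to -2.67), between Nr4a3 and Nr4a1. Egr2 and Egr4, the other EGR factors, had intervals that reach 0 over all nuclei, at -0.40 (-0.93 to 0.11) and -0.43 (-0.93 to 0.05). The corepressors Nab1 and Nab2, which bind EGR proteins, stood at -0.05 and 0.20.

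Of the other AP-1 genes, 5 of 11 were lower over all nuclei, none by 2-fold, where 38.2% of all genes were lower. Their median was 0.25, beside 0.10 over all genes. Fosl2, a Fos relative, was lower at -0.69 and Jdp2, a repressor that pairs with Jun, at -0.55, while Batf2 and Batf3 were higher at 0.81 and 0.82. In fibroblast-like nuclei 6 of 8 measured were lower, 2 of them by at least 2-fold, with a median of -0.27. Of all genes there, 41.6% were lower and 3.81% at least 2-fold lower. In endothelial-like nuclei all 6 measured were lower, with a median of -0.70, where 44.5% of all genes were lower. Of 15 other early transcription factors, 8 were lower over all nuclei, none by 2-fold, where 38.2% of all genes were lower. Their median was -0.02. Btg2, an antiproliferative early gene, was lower in fibroblast-like nuclei, 83 UMIs in the AEVs and 672 UMIs in the PBS library, at -2.11 (-2.46 to -1.78), and in endothelial-like nuclei, 72 against 273 UMIs, at -2.10 (-2.49 to -1.72). Myc, the growth regulator, was higher over all nuclei at 0.55 (0.27 to 0.83), and Npas4, an early factor known for its restriction to neurons, stood at 0.33 (-0.03 to 0.70).

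Of the early genes that are not transcription factors, 15 of 22 were higher over all nuclei, with a median of 0.15 beside 0.10 over all genes, of which 61.8% were higher. In fibroblast-like nuclei 13 of 21 were lower, 4 of them by at least 2-fold, with 1 at least 2-fold higher and a median of -0.08. Of all genes there, 41.6% were lower, 3.81% at least 2-fold lower and 4.73% at least 2-fold higher. Over all nuclei Arl4d, a small GTPase, was 55.4 CPM in the AEVs and 20.4 CPM in the PBS library, at 1.44 (1.35 to 1.53). Sgk1, a kinase induced by glucocorticoids and serum, was 377.7 against 209.8 CPM over all nuclei, at 0.85. Ptgs2, the inducible cyclooxygenase, was lower over all nuclei at -0.90 (-1.19 to -0.63), Arc, a synaptic protein, at -0.83 and Sik1, a salt-inducible kinase, at -0.76. Ccn2, the nearest relative of Ccn1, was singled out after its values were seen. It had 787 UMIs in both libraries in fibroblast-like nuclei, 638.3 CPM in the AEVs and 340.2 CPM in the PBS library, at 0.91 (0.76 to 1.05), and 188 against 22 UMIs in endothelial-like nuclei, at 2.92 (2.28 to 3.63), where Ccn1 was lower at -1.78.

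**Figure D5:**
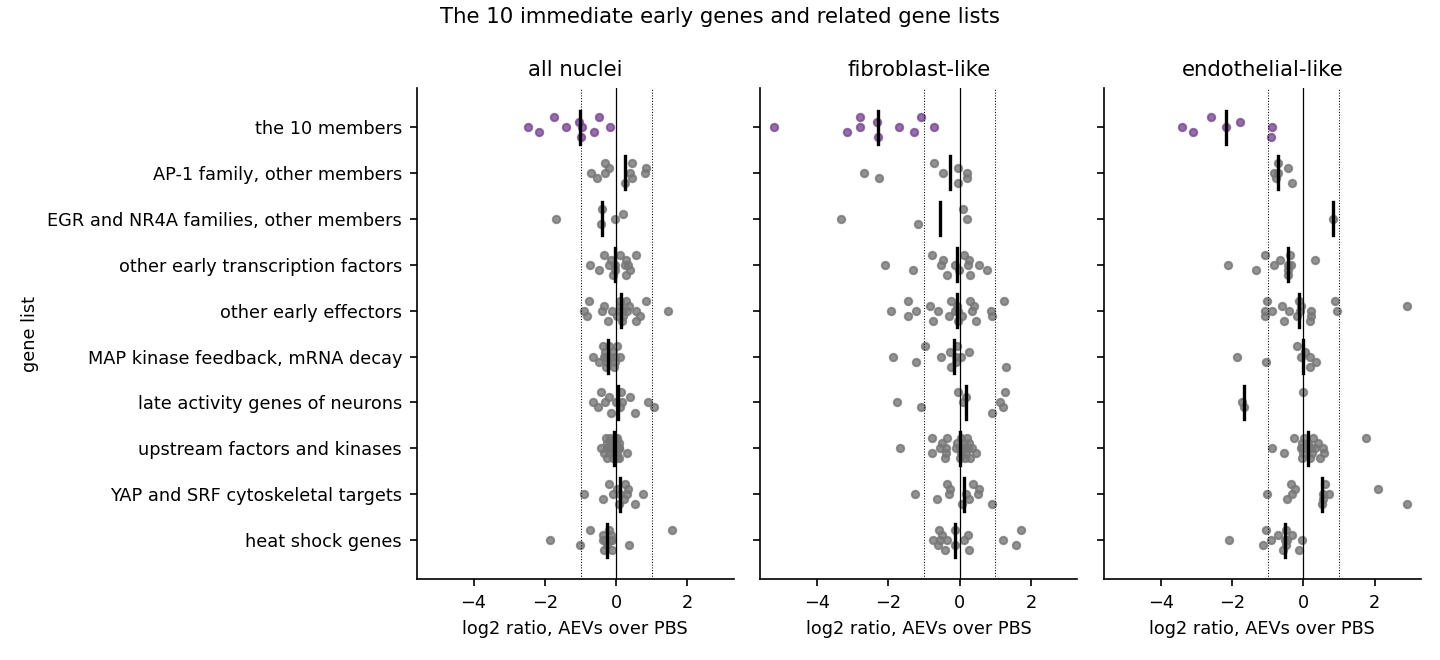
Log2 ratio, AEVs over PBS, of each measured gene of the 10 and of 9 related lists, in all nuclei, fibroblast-like and endothelial-like nuclei. Dots are genes, black lines list medians and dotted lines a 2-fold difference; the median of the 10 genes is -1.01, -2.31 and -2.18 across the panels, and the list medians in fibroblast-like nuclei run from -0.55 to 0.16.

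Feedback inhibitors and decay factors, which end the early response, were lower over all nuclei in 14 of 16, none by 2-fold. Of all genes 38.2% were lower, and the list median was -0.24, beside 0.10 over all genes. Spry4, an inhibitor of receptor tyrosine kinase signalling, stood at -0.65 (-0.89 to -0.42), Spred2, of the same family, at -0.47, and Zfp36l1, which promotes decay of messages with AU-rich elements, at -0.37. Of the upstream kinases and factors, 16 of 26 were lower over all nuclei, with a median of -0.07. In fibroblast-like nuclei their median was 0.02, beside 0.09 over all genes there. Over all nuclei Srf itself had 137 UMIs in the AEVs and 181 UMIs in the PBS library, at -0.35 (-0.68 to -0.02). Elk3, one of its partners, was at -0.44. Targets of YAP and of serum response factor in the cytoskeleton had a median of 0.11 over all nuclei. Of these targets Cnn2, a calponin, was lowest at -0.91 and Myl9, a myosin light chain, highest at 0.76.

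Late activity genes of neurons, which follow the early factors by hours, had a median of 0.06 over all nuclei. Of them 6 of 14 were lower, where 38.2% of all genes were. Crh and Bdnf, a stress peptide and a growth factor, were lower at -0.65 and -0.51, and Rasl11b, a small GTPase, Penk, the enkephalin precursor, and Scg2, a granule protein, were higher at 1.05, 0.89 and 0.52. Heat shock genes, which encode stress-induced chaperones and their partners, were lower in 13 of 15 over all nuclei, with a median of -0.25. Of all genes, 38.2% were lower. Hspa1b, an inducible chaperone, was at -1.85 (-2.33 to -1.40), and Hspb1, a small heat shock protein of reactive astrocytes, was higher at 1.55. In fibroblast-like nuclei Hspa1b had the opposite sign, with 14 UMIs in the AEVs and 8 UMIs in the PBS library, at 1.72 (0.36 to 3.18). In endothelial-like nuclei all 13 measured heat shock genes were lower, where 44.5% of all genes were. The heat shock genes summed to 2413 CPM in the AEVs and 4000 CPM in the PBS library there.

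Over the 20 points given by 10 classes in 2 libraries, the genes whose log2(CPM + 1) ran most like that of the summed 10 were ranked among 15809 genes with at least 200 UMIs. Calu, a calcium-binding protein of the secretory pathway, came first with a Pearson correlation of 0.903, then Fosl2 (0.883), Plscr1 (0.870), Tubb6 (0.870), Igf2 (0.869), Tpm4 (0.867), Mill2 (0.866), Fap (0.865), Coq10b (0.863) and Cxcl12 (0.861). Points of 1 library share its depth and preparation, so the values are a description. Of the members, Egr1 was most like the sum at 0.896 and Apold1 least at 0.572. Each member is itself part of the sum, so its value is partly fixed in advance and cannot be set beside those of other genes. Of these 10 like genes Fap, a protease of activated fibroblasts, had the largest difference over all nuclei, 168 UMIs in the AEVs and 468 UMIs in the PBS library, at -1.42, and Calu had 2043 against 2143 UMIs, at -0.01.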

How the data were processed

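Per the labels' protocols, nuclei came from frozen spinal cord and libraries from a SeekOne droplet kit that reads the 3′ end of polyadenylated RNA. The authors deposited raw UMI counts per gene and barcode, with no scaling and no barcode under 500 UMIs. Build mm10 and Seurat are named, without a version, in the submitters' processing notes. The sources used here do not name the aligner or strand setting, nor any removal of ambient RNA. Of 32285 gene identifiers, 32158 were in GENCODE M21.

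Nuclei with at least 300 genes, 500 UMIs and under 5% mitochondrial UMIs were kept, out of 17055 AEVs and 15325 PBS barcodes with 81875882 and 82953601 UMIs. Doublets called by Scrublet in scanpy 1.11.5, 1347 AEVs and 947 PBS nuclei, were removed. Both libraries were clustered together with Leiden (leidenalg 0.10.2, igraph 0.11.9; 2830 variable genes without the 10 members, 30 components, 20 neighbours, resolution 1), with no integration. Of 38 clusters, those of 14 classes were named by the class whose markers were highest relative to other clusters, with at least 3 markers raised 2-fold. This scoring was made after the data were seen, and 4 clusters stayed unnamed. Python 3.11.15, numpy 2.4.6 and scipy 1.17.1 were used.

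Counts were summed per class and library. Poisson intervals for levels, conditional binomial intervals for ratios and Clopper-Pearson intervals for shares are exact and cover counting error only. No test across samples was made, since each group has 1 library. Ratio and interval code was tested on simulated data. Ratios are counted for genes whose UMIs over both libraries reach 20, and a library at 0 UMIs is set to 3 counts to give a bound. The members and related lists were chosen with earlier results of these data known. Besides the members, the 3 highest and 3 lowest genes of each list over all nuclei, those past 2-fold, and the 10 genes most like the sum could be named. Alternatives were no doublet removal, no mitochondrial limit, a stricter nucleus filter, thinning, averaging over nuclei, another scaling, an equal mix of clusters, other count filters, finer clusters and clusters with the members among the variable genes.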

Additional observations from a re-analysis of the deposited data

Results flagged for a closer look

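A few values stood apart because their counting intervals lay above 0 while those of other classes for the same gene or sum lay below 0. The difference between classes was not tested, since each class has 1 value per library. The summed 10 genes were higher in the AEVs than in the PBS library in microglia-like nuclei, the one class of the 10 with an interval above 0, at 0.43 on the log2 scale, while 5 classes had intervals below 0. Jun had positive ratios in microglia-like (0.77), lipid-loaded phagocyte-like (1.35) and macrophage-like nuclei (1.93), while 5 classes had intervals below 0. Junb was higher in the AEVs library in neuron-like (0.28), oligodendrocyte-like (1.19) and microglia-like nuclei (0.63), while 4 classes had intervals below 0. No sample group was large enough for a check of single samples.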

How the results depend on the processing

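The summed log2 ratio over all nuclei was below 0 under every alternative run. It was -1.04 with nuclei thinned to 1000 UMIs, -1.07 as a mean over nuclei, -0.92 with the median gene ratio set to 1, -0.75 with the same mix of clusters in both libraries and -0.48 without fibroblast-like nuclei, against -0.83. The count of genes at least 2-fold lower was 8 with thinning and 8 as a mean over nuclei, against 5, and 4 to 7 in the other alternatives. The number of classes with a lower sum was 7 to 9, against 9 of 10. In fibroblast-like nuclei the sum ran from -1.87 to -1.69, in endothelial-like from -2.08 to -1.86, in astrocyte-like from -1.04 to -0.60 and in neuron-like from -0.42 to -0.28. Oligodendrocyte-, phagocyte- and macrophage-like sums changed sign between alternatives, from -0.18 to 0.19, from -0.29 to 0.29 and from -0.09 to 0.23. Of single values, Junb in phagocyte-like nuclei was 0.0413 at 1000 UMIs and 500 genes per nucleus, Jun in neuron-like nuclei was 0.17 after thinning, and Junb over all nuclei was 0.0654 without fibroblast-like nuclei. The cause was not tested. For classes and single genes, 469 other values stayed within their counting interval and 57 moved past it. Some of the 57, such as the oligodendrocyte-like sum at 0.19, changed sign from a main value whose interval held 0. Macrophage-like and Schwann-like nuclei fell under 100 in some alternatives and gave no value there. No paired analysis was possible because each group has 1 library.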

Other observations

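Among nuclei outside the classes described, an unnamed cluster led by the neurofilament gene Nefh held 156 AEVs and 579 PBS nuclei. Its 10 genes summed to 147.2 CPM in the AEVs and 250.5 CPM in the PBS library. Nuclei removed for 5% or more mitochondrial UMIs, 102 in the AEVs and 520 in the PBS library, had 157.1 against 150.6 CPM of the 10 genes. In neuron-like nuclei, those with 0.5 to 5% mitochondrial UMIs had 152.4 CPM in the AEVs and 128.6 CPM in the PBS library, and those under 0.5% had 76.8 against 94.1 CPM.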
